A study of Mus musculus with 12 samples.

Results

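The genes of the mouse major histocompatibility complex (MHC, named H2 in the mouse) and of antigen presentation were examined in dorsal root ganglia (DRG) of mice that had lost Nf2 with or without Fak in Postn-Cre cells. The genes were chosen by name, as every gene of the table whose symbol begins with H2- (45 genes) and B2m, Tap1, Tap2, Tapbp, Erap1, Cd74, Ciita and Nlrc5 (8 genes). They numbered 53 of 49315 genes, and 48 of them lie on chromosome 17. Of the 53 genes, 42 are annotated as protein-coding and 11 as pseudogenes of some kind. No read was found for 2 genes in any mouse, a further 12 had too few reads to be tested and 39 were tested.

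RNA was sequenced from pooled DRG of single mice at an age of 10 months, 1 library per mouse. The 6 Nf2 mice carried Postn-Cre(+) and Nf2 flox/flox alleles, and the 6 DKO mice carried Fak1 flox/flox alleles (Fak is the gene annotated as Ptk2) in addition to the same Cre and Nf2 alleles. Each genotype had 3 mice labelled male and 3 labelled female, and no mouse with intact Nf2 was among the 12. Postn-Cre is active in Schwann cells and their precursors, while the bulk RNA also comes from neurons, macrophages, vessels and other cells of the ganglia.

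MHC class I molecules are made by most nucleated cells. They consist of a heavy chain and beta-2-microglobulin and show peptides from inside the cell to CD8+ T cells, after the peptides have been pumped into the endoplasmic reticulum by the TAP transporter, trimmed by Erap1 and loaded with the help of tapasin. MHC class II molecules are made mainly by macrophages, dendritic cells and B cells, travel with the invariant chain Cd74 and show peptides from the endosome to CD4+ T cells. The transactivator Nlrc5 drives class I genes and Ciita drives class II genes, both acting through a shared promoter module, and interferon gamma raises both sets. In DRG, resident macrophages are the cells best known for class II, whereas neurons and healthy Schwann cells carry little of it.

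The promoters of the genes that the results turn on are shown because the class I heavy chains, B2m and the class II chains share this module. RefSeq windows (GRCm38.p6, from 250 bases before to 50 bases after the transcription start) were available for 36 of the 53 genes. Capitals mark 2 things, first TGANG followed by ATTGG with 24 to 27 bases between their first letters, which are letters found in the X2 and Y boxes of the module, and second GAANNGAAA on either strand, which are letters found in interferon-stimulated response elements. Each window is written 5′ to 3′ on the strand of its gene.
H2-K1, chr17:34000298-34000597, minus strand: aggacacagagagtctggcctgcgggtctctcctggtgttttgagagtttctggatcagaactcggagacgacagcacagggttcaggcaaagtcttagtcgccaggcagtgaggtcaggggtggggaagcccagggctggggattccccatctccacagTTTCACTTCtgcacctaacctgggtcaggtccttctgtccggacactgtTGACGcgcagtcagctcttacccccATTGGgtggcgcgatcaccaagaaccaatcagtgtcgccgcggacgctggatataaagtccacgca
H2-D1, chr17:35262844-35263143, plus strand: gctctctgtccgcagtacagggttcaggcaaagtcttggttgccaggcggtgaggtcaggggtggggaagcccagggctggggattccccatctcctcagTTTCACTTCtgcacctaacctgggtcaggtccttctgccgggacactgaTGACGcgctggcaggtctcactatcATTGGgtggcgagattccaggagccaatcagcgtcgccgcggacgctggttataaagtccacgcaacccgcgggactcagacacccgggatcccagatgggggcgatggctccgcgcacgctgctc
B2m, chr2:122147437-122147736, plus strand: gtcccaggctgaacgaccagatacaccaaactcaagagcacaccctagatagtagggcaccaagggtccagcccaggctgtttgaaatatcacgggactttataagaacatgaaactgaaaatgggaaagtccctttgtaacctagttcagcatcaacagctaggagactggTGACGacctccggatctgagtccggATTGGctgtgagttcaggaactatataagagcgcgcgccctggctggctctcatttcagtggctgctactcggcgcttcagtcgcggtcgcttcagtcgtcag
H2-Aa, chr17:34287774-34288073, minus strand: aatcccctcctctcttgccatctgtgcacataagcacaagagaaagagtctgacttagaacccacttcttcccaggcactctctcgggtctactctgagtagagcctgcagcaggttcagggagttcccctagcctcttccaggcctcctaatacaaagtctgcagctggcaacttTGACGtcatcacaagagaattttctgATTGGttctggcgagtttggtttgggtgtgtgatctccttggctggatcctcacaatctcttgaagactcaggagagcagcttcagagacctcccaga
H2-Eb1, chr17:34305617-34305916, plus strand: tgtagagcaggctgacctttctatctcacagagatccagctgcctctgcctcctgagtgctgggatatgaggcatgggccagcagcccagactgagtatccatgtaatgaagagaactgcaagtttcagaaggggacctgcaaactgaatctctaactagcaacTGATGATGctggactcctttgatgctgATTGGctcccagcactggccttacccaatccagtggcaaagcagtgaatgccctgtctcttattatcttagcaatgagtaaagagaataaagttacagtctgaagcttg

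The pair of motifs was spaced by 25 bases in H2-K1, H2-D1 and B2m and by 26 bases in H2-Aa. In H2-Eb1 the first motif occurred at 2 overlapping places, 27 and 24 bases before the second. The pair was present in 11 of the 36 genes (B2m, H2-K1, H2-D1, H2-Aa, H2-Eb1, H2-Eb2, H2-DMb1, H2-DMb2, H2-Q6, H2-Q7 and H2-M3), searched on both strands, and in 1.19% of the 32851 promoter windows in the table. GAANNGAAA was present in 8 of the 36 genes (H2-K1, H2-D1, H2-Q4, H2-Q6, H2-Q7, H2-Q10, H2-M2 and H2-M3) and in 7.52% of all windows. In the windows shown it stands on the reverse strand of H2-K1 and H2-D1. Only this spacing was searched. The B2m window holds gaaactgaaa, which has a further A after GAA and is therefore not matched. The search thus cannot show that B2m lacks such an element. The H2-D1 window lies around a RefSeq start 364 bases inside the gene start of GENCODE M21. These matches describe letters, and neighbouring H2 genes share promoter sequence by descent.

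Libraries held between 21129191 and 41250329 counts. Sensory neuron and Schwann cell genes were abundant in all mice, with 7 neuronal genes summing to 3921 to 5815 CPM (counts scaled to a common library total) and 6 Schwann cell genes to 3544 to 5648 CPM. Scaling followed edgeR's trimmed mean of M values, TMM. The gene targeted in DKO mice alone, Ptk2, had 70.5 ± 4.40 CPM in Nf2 and 63.7 ± 10.3 CPM in DKO mice (SD, n = 6), and its log2 fold change was -0.15 (edgeR adjusted p 0.529), while that of Nf2, targeted in both, was -0.14 (0.435). Libraries of 3 Nf2 mice and 1 DKO mouse stood apart for the genes described here. Mouse 702, labelled male, had 508.3 CPM of Xist and 0.538 CPM of Ddx3y, values within the range of mice labelled female, and it was the highest of the 12 mice for 23 of the 39 tested genes, against 6.89% of all tested genes. Mouse 886, a DKO mouse, was the lowest for 16 of the 39, against 12.4% of all tested genes. Mice 649 and 1048, both Nf2, stood apart from the other 10 in H2-Eb1 and H2-K2, and mouse 1048 alone in H2-T22. Across the 39 genes, mouse 1048 was the lowest of the 12 mice for 12, against 4.43% of all tested genes. Mouse 649 was also the highest mouse for 20.8% and the lowest for 21.9% of all tested genes. Differences between genotypes are therefore, for most of the named genes, also given without one or more of these mice.

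Levels between genes were compared as mean CPM per kilobase of exon over the 12 mice. The light chain B2m had the highest level with 469.3, followed by the class I heavy chain H2-D1 with 330.9, Cd74 with 82.6 and the second classical heavy chain H2-K1 with 61.2. H2-Q4, a class Ib gene of the Q region, came next with 49.6. The class II chains H2-Aa and H2-Ab1 had 26.4 and 21.7, tapasin (Tapbp) 23.8, Tap2 15.9, Tap1 5.80 and Erap1 3.46. Several neighbouring steps of this order rest on differences smaller than the spread between mice. These include the steps between B2m and H2-D1, between Cd74, H2-K1 and H2-Q4, and between H2-Aa, Tapbp and H2-Ab1. All genes were measured in the same libraries, so part of this spread is shared between them. Within each mouse, per kilobase, B2m lay above H2-D1, H2-K1 above H2-Q4 and H2-Aa above H2-Ab1. H2-Eb1 had 5.47, Nlrc5 1.87 and Ciita 0.393. The peptide editor H2-DMa had 4.86, whereas its relatives H2-Oa and H2-Ob, which modulate it in B cells, had 0.473 and 0.443.

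DKO and Nf2 mice were compared to ask what the additional loss of Fak does to antigen presentation genes in Nf2-deficient ganglia. None of the 39 tested genes passed an edgeR adjusted p of 0.05 (0 of 39), where 0.940% of all 18295 tested genes passed. At an unadjusted p under 0.05 there were 5 genes, H2-K2, H2-K1, H2-T23, H2-Eb1 and H2-T22, all with lower values in DKO (12.8% of the 39, against 7.96% of all tested genes). DESeq2 called 4 of the 38 to which it gave an adjusted p, H2-K2, H2-K1, H2-Eb1 and H2-T23, against 4.64% of all genes with one, and 6 had an unadjusted p under 0.05. Limma voom with quality weights called 0, against 2.85% of all tested genes, with 6 at an unadjusted p under 0.05. The smallest edgeR adjusted p was 0.102.

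Most fold changes nevertheless lay on one side. In 36 of the 39 genes the log2 fold change was below 0, against 49.0% of all tested genes, with a median of -0.26 against 0.00467 for all tested genes and a range from -2.03 to 0.16. The 39 genes were measured in the same 12 libraries and do not count as independent. Without mouse 702 the number below 0 was 29 of 39 and the median -0.10. Without mouse 886 it was 32 of 39 and -0.21, and without mice 649, 702 and 1048 it was 28 of 39 and -0.18. Among mice labelled male the number was 38 of 39 with a median of -0.53, and among mice labelled female 21 of 39 with a median of -0.03. The mice labelled male include mouse 702, whose Xist and Ddx3y values lay within the range of mice labelled female. No fit of the mice labelled male was made without it, so this split cannot be read as a difference between the sexes. The genotypes did not overlap in 1 of the 39 genes, H2-K1, against 2.08% of all tested genes.

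**Figure D1:**
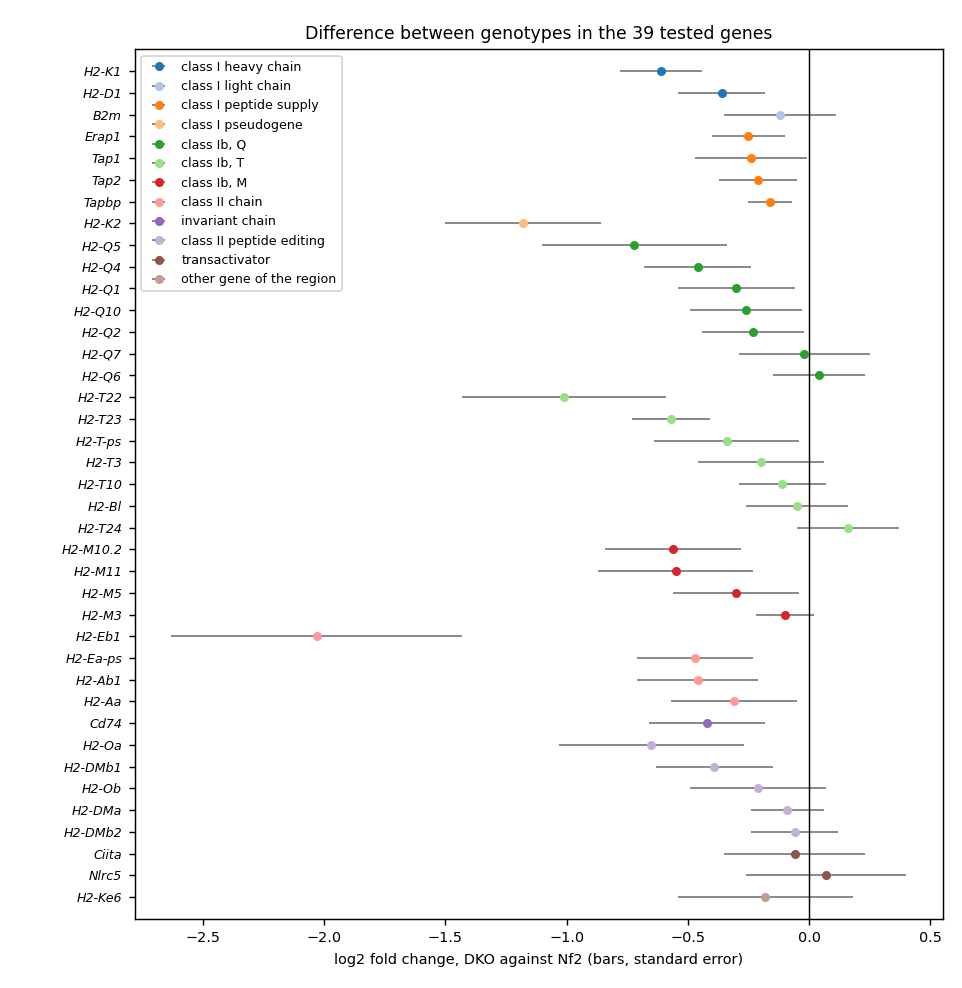
Log2 fold change of DKO against Nf2 for the 39 tested genes (horizontal axis, edgeR estimates with standard errors as bars), grouped by role in colour. The points run from -2.03 for H2-Eb1 to 0.16 for H2-T24, with 36 of 39 left of 0, and none passed the adjusted threshold.

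Among the classical class I genes, H2-K1 (ENSMUSG00000061232, GRCm38 chromosome 17, 33996017 to 34000347, minus strand) ranged from 179.1 to 290.4 CPM in Nf2 mice, with a median of 184.8. In DKO mice it ranged from 88.9 to 167.2 CPM with a median of 151.6. The lowest Nf2 mouse thus lay above the highest DKO mouse, while 2 Nf2 mice, 649 and 702, lay far above the other 4. The log2 fold change was -0.61 ± 0.17 (SE, edgeR p 0.00343, adjusted p 0.112), a DKO level of 0.656 times that of Nf2 mice. Without mice 649, 702 and 1048 it was -0.34, with an edgeR adjusted p of 0.474.

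H2-D1 (ENSMUSG00000073411, chromosome 17, 35262730 to 35267499), the more abundant heavy chain, ranged from 561.2 to 1378 CPM in Nf2 mice (median 901.9) and from 555.7 to 858.1 CPM in DKO mice (median 791.5). The genotypes overlapped, with mouse 1048 the lowest Nf2 mouse and 843.3 CPM in the next. Its log2 fold change was -0.36 ± 0.18 (SE, edgeR adjusted p 0.377), -0.23 without mouse 702 (0.569) and -0.47 without mouse 1048 (edgeR p 0.00686, adjusted p 0.162). B2m (ENSMUSG00000060802, chromosome 2, 122147686 to 122153083), the partner of every class I heavy chain, ranged from 280.5 to 595.3 CPM in Nf2 (median 375.2) and from 221.4 to 553.5 CPM in DKO mice (median 376.9). The medians lay close together, and the log2 fold change was -0.12 ± 0.23 (SE, edgeR adjusted p 0.861). It was 0.01 without mouse 702, 0.004 without mouse 886, -0.003 without mouse 649 and 0.12 without mice 649, 702 and 1048.

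The genes of peptide supply had small differences. Tap1 and Tap2, the 2 chains of the peptide transporter, had means of 34.4 ± 15.0 and 64.5 ± 17.4 CPM in Nf2 mice and of 29.1 ± 7.27 and 55.8 ± 10.6 CPM in DKO mice (SD, n = 6). Their log2 fold changes of -0.24 ± 0.23 and -0.21 ± 0.16 (SE) had edgeR adjusted p-values of 0.685 and 0.604, and without mouse 702 the values were 0.04 and -0.08. Without mouse 886 that of Tap1 was -0.15, and without mouse 887 they were -0.37 and -0.32. Tapbp, the chaperone that bridges TAP and the heavy chain, differed by -0.16 ± 0.09 on the log2 scale (SE, edgeR adjusted p 0.425) and Erap1, the trimming peptidase, of -0.25 ± 0.15 (0.495), which were -0.09 and -0.10 without mouse 702. Nlrc5 ranged from 8.26 to 35.0 CPM in Nf2 and from 10.5 to 28.0 CPM in DKO mice, with medians of 12.2 and 14.6. Its fold change was 0.07 ± 0.33 (SE, log2, edgeR adjusted p 0.945), and its sign depended on single mice (-0.15 without mouse 887, 0.49 without mouse 702).

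**Figure D2:**
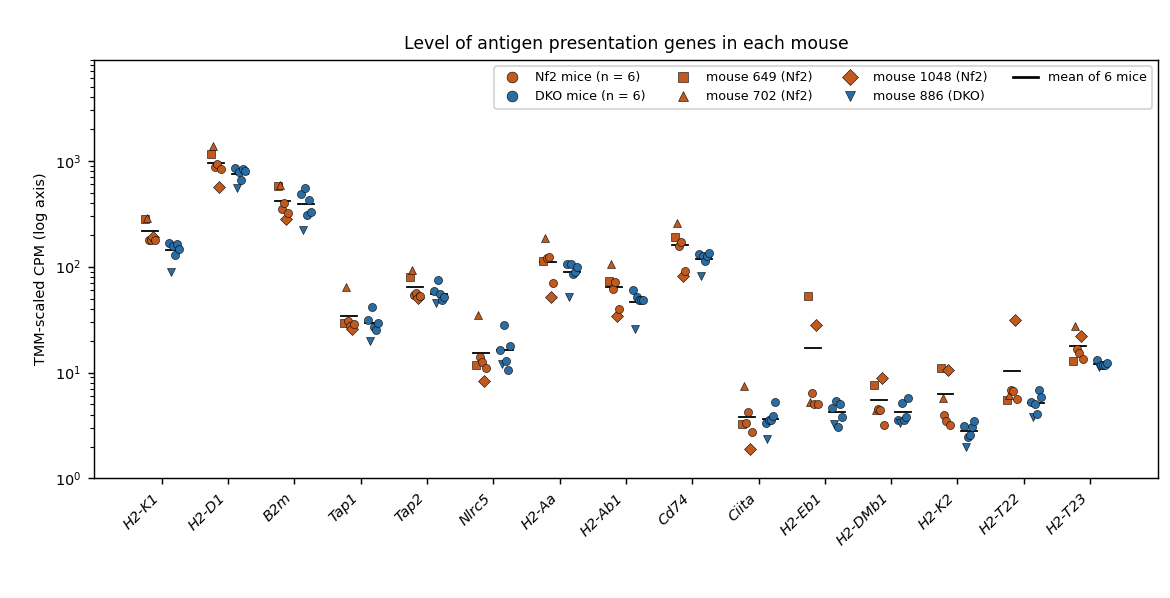
TMM-scaled CPM (vertical axis, log scale) of 15 genes in each of 6 Nf2 mice (orange) and 6 DKO mice (blue), with black lines at the means and separate symbols for mice 649, 702, 1048 and 886. Mice 649 and 1048 lie at 52.4 and 28.3 CPM for H2-Eb1, mouse 1048 lies at 31.1 CPM for H2-T22, and H2-K1 is the gene in which the genotypes do not overlap.

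Class Ib genes encode heavy chains with few alleles and narrower tasks. Of 18 tested Q, T and M genes, 16 had a log2 fold change below 0 and 2 (H2-T22 and H2-T23) an unadjusted p under 0.05. H2-T23 (ENSMUSG00000067212, chromosome 17, 36029773 to 36032855, minus strand) encodes Qa-1, which presents leader peptides of other class I chains to NK cell receptors. It ranged from 11.4 to 13.2 CPM in DKO mice (median 11.9) and from 12.9 to 27.3 CPM in Nf2 mice (median 16.0). The DKO values were tightly grouped, and 1 Nf2 mouse (649) lay within their range. Its log2 fold change was -0.57 ± 0.16 (SE, edgeR adjusted p 0.122), and without mice 649, 702 and 1048 it was -0.33 with an edgeR adjusted p of 0.197.

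H2-Q4 had the highest level of the class Ib genes, with means of 149.2 ± 51.6 CPM in Nf2 and 108.2 ± 25.6 CPM in DKO mice (SD, n = 6). Its log2 fold change was -0.46 ± 0.22 (SE, edgeR adjusted p 0.341), and it was -0.29 without mouse 702 and -0.23 without mice 649, 702 and 1048. H2-M3, which presents formylated bacterial peptides, differed little (-0.10, edgeR adjusted p 0.750). The 2 class Ib genes above 0 were H2-T24 (0.16, edgeR adjusted p 0.780) and H2-Q6 (0.04, 0.951).

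Among class II genes, H2-Aa (ENSMUSG00000036594, chromosome 17, 34282744 to 34287823, minus strand), the alpha chain of the A molecule, ranged from 51.8 to 186.2 CPM in Nf2 mice (median 117.7) and from 52.0 to 106.9 CPM in DKO mice (median 93.5). H2-Ab1 (ENSMUSG00000073421, chromosome 17, 34257689 to 34269419), its beta chain, ranged from 34.2 to 105.7 CPM (median 66.2) and from 25.7 to 59.8 CPM (median 48.3). Cd74, the invariant chain, ranged from 81.6 to 260.3 CPM (median 163.6) and from 81.3 to 133.4 CPM (median 126.8). In all 3 genes the Nf2 mice spread more widely than the DKO mice, and the lowest mice were 1048 among Nf2 and 886 among DKO mice. The log2 fold changes were -0.31 ± 0.26 for H2-Aa, -0.46 ± 0.25 for H2-Ab1 and -0.42 ± 0.24 for Cd74 (SE, edgeR adjusted p 0.636, 0.432 and 0.461). Without mouse 702 they were -0.11, -0.26 and -0.22, and without mouse 886 that of H2-Aa was -0.19.

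Ciita had medians of 3.31 CPM in Nf2 and 3.54 CPM in DKO mice and a log2 fold change of -0.06 ± 0.29 (SE, edgeR adjusted p 0.944), which was 0.24 without mouse 702. H2-DMa, a chain of the molecule that exchanges peptides on class II, had 17.3 ± 4.49 and 16.2 ± 2.02 CPM (SD, n = 6) and a fold change of -0.09 (log2, edgeR adjusted p 0.826), which was 0.02 without mouse 702. H2-Ea-ps, the pseudogene of the E alpha chain in this annotation, had medians of 3.76 and 2.74 CPM (log2 fold change -0.47 ± 0.24, edgeR adjusted p 0.392).

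All 10 macrophage genes listed had a log2 fold change below 0, with Mrc1 at -0.01, against 49.0% of all tested genes. Of the 10, 1 passed by edgeR, 4 by DESeq2 and 2 by limma voom, against 0.940%, 4.64% and 2.85% of all genes. An unadjusted edgeR p under 0.05 was found for 7, all lower in DKO, against 7.96% of all tested genes lower at that p. C1qb, a chain of complement C1q made by macrophages, was lower in DKO mice with a log2 fold change of -0.71 ± 0.12 (SE, edgeR adjusted p 0.0138), its highest DKO value of 26.1 CPM lying below its lowest Nf2 value of 27.9 CPM. For the receptor Csf1r the value was -0.65 ± 0.15 (SE, edgeR adjusted p 0.0566) and for C1qc -0.46 ± 0.12 (0.0859). Their summed level was 219.3 to 336.8 CPM in Nf2 and 182.1 to 240.6 CPM in DKO mice, and no gene of the list was at 0 in any mouse. Among Nf2 mice, mouse 1048 had the lowest Cd74 level and the lowest sum, and mouse 702 the highest of both. Among DKO mice this did not hold, as mouse 917 had the highest Cd74 level (133.4 CPM) and the lowest sum (182.1 CPM), and mouse 886 the lowest Cd74 level (81.3 CPM) and a sum of 193.1 CPM. Dendritic cell genes summed to 34.9 to 42.8 CPM in Nf2 and 39.0 to 46.6 CPM in DKO mice, with Xcr1 and Ccr7 too low to be tested, and B cell genes to 5.04 to 32.2 CPM and 6.19 to 42.2 CPM. Of the 6 tested dendritic cell genes, 5 had a log2 fold change above 0, with a median of 0.24. By any tool 0 of them passed, and 1 had an unadjusted edgeR p under 0.05. All 6 B cell genes had a log2 fold change above 0 and none passed by edgeR (0 of 6, with 5 at an unadjusted p under 0.05 and 1 called each by DESeq2 and limma voom). The share of all tested genes that were higher in DKO at that unadjusted p was not computed. The part of these cells in the class II values was not tested. In bulk RNA, fewer cells of a type and less RNA per cell cannot be told apart.

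H2-Eb1 (ENSMUSG00000060586, chromosome 17, 34305867 to 34316674), the beta chain of the E molecule, had the largest fold change and followed another pattern. It had 52.4 CPM in Nf2 mouse 649 and 28.3 CPM in Nf2 mouse 1048, whereas the other 4 Nf2 mice ranged from 5.00 to 6.37 CPM and the 6 DKO mice from 3.07 to 5.37 CPM. The 2 high mice lay 4.45 times or more above the next mouse, and the other 10 mice overlapped between genotypes. The log2 fold change was -2.03 ± 0.60 (SE, edgeR adjusted p 0.126) with all mice and -0.38 (0.328) without mice 649 and 1048. Mouse 1048 was the lowest of the 12 mice for H2-Aa (51.8 CPM), whereas mouse 649 was the second highest for H2-Ab1 (73.7 CPM) and Cd74 (191.6 CPM).

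H2-K2 (ENSMUSG00000067203, chromosome 17, 33974659 to 33978827, minus strand), a transcribed class I pseudogene next to H2-K1, was high in the same pair of mice. It had 11.1 CPM in mouse 649 and 10.5 CPM in mouse 1048, against 3.18 to 5.73 CPM in the other 4 Nf2 mice and 1.96 to 3.50 CPM in DKO mice. Its log2 fold change of -1.18 ± 0.32 (SE, edgeR adjusted p 0.102) was -0.56 (0.204) without these mice. H2-DMb1, a beta chain of the peptide exchange molecule, had 7.55 and 8.91 CPM in mice 649 and 1048 and 3.22 to 5.81 CPM in the other 10. Its log2 fold change was -0.39 with all mice (edgeR adjusted p 0.494), -0.20 without mouse 1048 and 0.01 without this pair. By a rule set after these values were seen, mice 649 and 1048 were the 2 highest of the 12 and both at least 1.5 times the next mouse in 3 tested genes (0.0164%), which are H2-Eb1, H2-K2 and E230020A03Rik.

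H2-T22 (ENSMUSG00000056116, chromosome 17, 36037128 to 36042747, minus strand), a class Ib heavy chain recognised by a subset of gamma delta T cells, was high in mouse 1048 alone. It had 31.1 CPM there, against 5.50 to 6.85 CPM in the other 5 Nf2 mice and 3.83 to 6.83 CPM in DKO mice. The mouse lay 4.54 times above the next one, and the other 11 mice overlapped. The log2 fold change was -1.01 ± 0.42 (SE, edgeR adjusted p 0.275) with all mice and -0.27 without mouse 1048. Its near-copy H2-T10, with which H2-T22 shares 31.2% of its 50-base windows, was low in the same mouse, with 9.35 CPM against 12.9 to 24.8 CPM in the other 11. By a rule likewise set after these values were seen, mouse 1048 was at least 2 times the next mouse, at 1 CPM or more, in 2 tested genes (0.0109%), H2-T22 and Gm609.

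**Figure D3:**
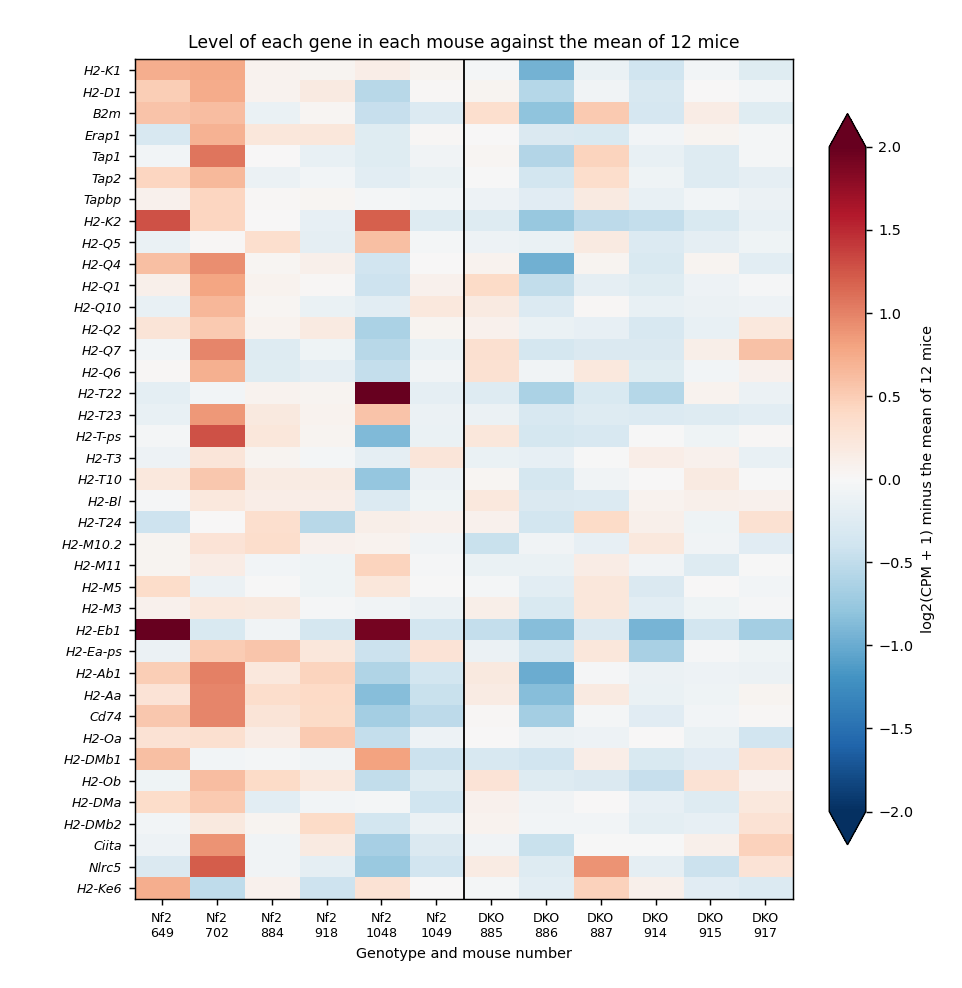
Level of the 39 tested genes (rows, grouped by role) in the 12 mice (columns, Nf2 left and DKO right of the line), as log2(CPM + 1) minus the mean over the 12 mice, with colours ending at -2 and 2. Mouse 702 is above the mean for most rows, mice 649 and 1048 share the H2-Eb1 and H2-K2 rows, and mouse 886 is below the mean for most rows.

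Some genes of the region have close relatives, and how reads that match several genes were counted is not stated. Of the distinct 50-base windows of its transcripts, H2-K1 shared 9.63%, H2-D1 11.2%, H2-K2 9.38% and H2-T23 10.0% with another gene of the region, so that most of their sequence was unique. The shares were 34.5% for H2-T22, 32.8% for H2-T10, 29.4% for H2-T-ps, 36.4% for H2-Q5, 27.0% for H2-Q6, 26.2% for H2-Q7 and 70.5% for H2-Ke6. The division of reads in these genes is uncertain. H2-Aa, H2-Ab1, H2-Eb1 and H2-DMa shared 0 windows, whereas H2-DMb1 and its neighbour H2-DMb2 shared 22.7% and 22.1%. Windows were compared on the reference sequence, and H2 genes differ between mouse strains. The strain background and the H2 haplotype of the mice were not given in the sources used here, and their part in the values of mice 649 and 1048 was not tested.

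Mouse 702 stood far above the other Nf2 mice in a further group of genes. It had 35.0 CPM of Nlrc5 against 8.26 to 13.9 CPM in the other Nf2 mice, 64.8 CPM of Tap1 against 25.6 to 30.5 CPM, 7.53 CPM of Ciita against 1.88 to 4.20 CPM and 21.3 CPM of H2-T-ps, a pseudogene of the T region, against 3.98 to 9.80 CPM. Cd274, an interferon gamma target outside the region that encodes the checkpoint ligand PD-L1 and was named after its values were seen, was also high in this mouse, with 35.1 CPM against a median of 12.0 CPM in Nf2 mice. Ifng itself had at most 5 counts in any mouse and was not tested.

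Relations across the 12 mice were computed for 6 pairs of genes that work together, on log2(CPM + 1). H2-Aa and H2-Ab1, the 2 chains of 1 molecule, had a Pearson r of 0.96 (two-sided permutation p 1e-05, the smallest that the resamples can give, adjusted p 6e-05) and a Spearman rho of 0.94 (permutation p 1e-05, adjusted 6e-05). Tap1 and the immunoproteasome subunit Psmb9, whose start sites adjoin, had an r of 0.91 (permutation p 0.00013, adjusted 0.00039) and a rho of 0.78 (permutation p 0.0042, adjusted 0.0126). Ciita and its target Cd74 had an r of 0.81 (permutation p 0.00143, adjusted 0.00286) and a rho of 0.63 (permutation p 0.0316, adjusted 0.0632).

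B2m and H2-K1 had an r of 0.74 (permutation p 0.00499, adjusted 0.00748) and a rho of 0.50 (permutation p 0.101, adjusted 0.121). H2-K1 and H2-Aa, a class I and a class II chain, had an r of 0.63 (permutation p 0.0265, adjusted 0.0318) and a rho of 0.50 (permutation p 0.0979, adjusted 0.121). Nlrc5 and H2-K1 had an r of 0.26 (permutation p 0.411, adjusted 0.411) and a rho of -0.08 (permutation p 0.817, adjusted 0.817).

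Leaving out the 2 mice farthest from the median of the first gene kept the relation of H2-Aa and H2-Ab1, with an r of 0.95 (permutation p 4e-05, adjusted 0.00024). The r of Ciita and Cd74 was then 0.54 (permutation p 0.103, adjusted 0.206), that of B2m and H2-K1 0.44 (permutation p 0.209, adjusted 0.313), that of Tap1 and Psmb9 0.65 (permutation p 0.0363, adjusted 0.109) and that of H2-K1 and H2-Aa 0.12 (permutation p 0.720, adjusted 0.720). These 4 relations no longer passed the adjusted threshold without the 2 mice, which included mouse 702 each time and whose removal also narrows the range of the first gene, so that over all mice they rest in part on these mice. Within the genotypes, H2-Aa and H2-Ab1 had an r of 0.98 in Nf2 and 0.97 in DKO mice (exact permutation, n = 6, adjusted p 0.0333 and 0.0306). Tap1 and Psmb9 had 0.89 and 0.98 (exact permutation, n = 6, adjusted p 0.0472 and 0.0306). In the DKO mice, B2m and H2-K1 (exact permutation, n = 6, adjusted p 0.0306) and H2-K1 and H2-Aa (0.0375) also passed. Within Nf2 and DKO mice the r was 0.89 and 0.80 for Ciita and Cd74, 0.90 and 0.89 for B2m and H2-K1, 0.56 and 0.94 for H2-K1 and H2-Aa, and 0.61 and 0.37 for Nlrc5 and H2-K1.

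**Figure D4:**
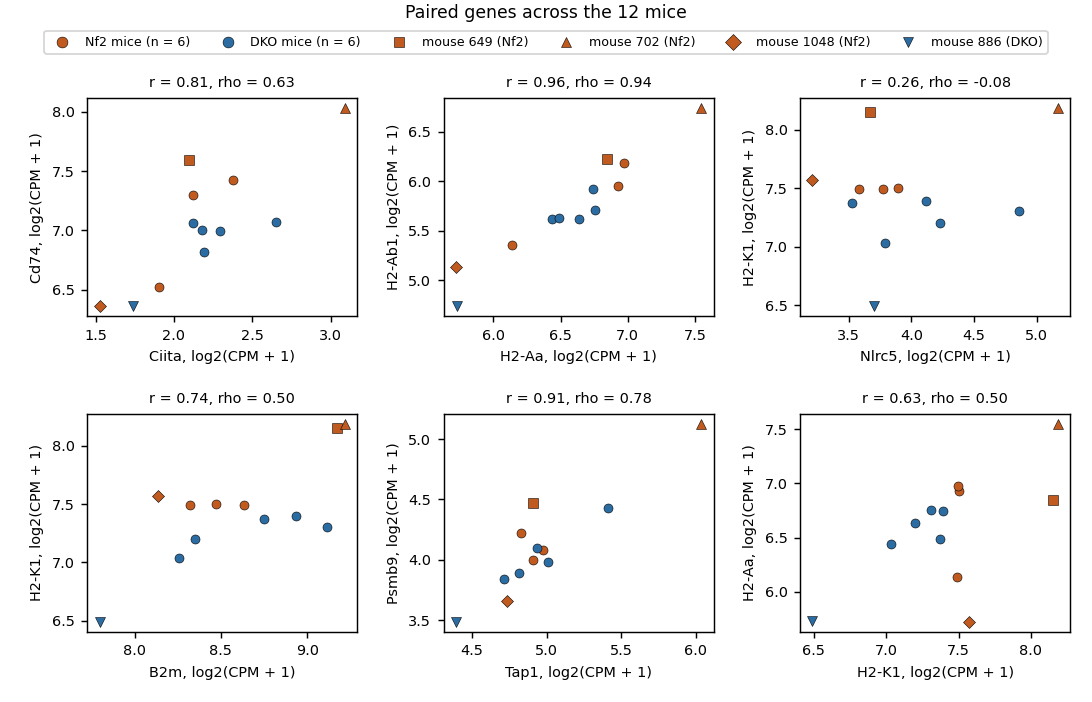
Log2(CPM + 1) of 6 pairs of genes in the 12 mice, 1 panel per pair, with Nf2 mice in orange, DKO mice in blue and separate symbols for mice 649, 702, 1048 and 886. H2-Aa and H2-Ab1 follow a line over all mice (r = 0.96), while in the panel of Tap1 and Psmb9 (r = 0.91) mice 702 and 886 form the ends.

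Partners of the pathway outside the chosen genes were described from lists. For comparison, 49.0% of all tested genes lay below 0, and 7.96% were lower in DKO at an unadjusted p under 0.05. In the immunoproteasome, which cuts proteins into class I peptides, 5 of 5 genes had a log2 fold change below 0 with a median of -0.31, and 0 passed by edgeR, DESeq2 or limma voom, nor did any reach an unadjusted p under 0.05. Psmb8 had the smallest p of them (log2 fold change -0.42, edgeR adjusted p 0.371). Of 5 chaperones of class I folding, 4 lay below 0 and 0 passed by any of the 3 tools, with 2 at an unadjusted p under 0.05, and Calr had -0.26 (edgeR adjusted p 0.221). All 7 genes of endosomal class II processing lay below 0 with a median of -0.16, and 0 passed by edgeR, 3 had an unadjusted p under 0.05 and DESeq2 called 1. Ctss, the cathepsin that cleaves the invariant chain in macrophages, had medians of 72.3 CPM in Nf2 and 44.2 CPM in DKO mice (log2 fold change -0.58 ± 0.18, edgeR adjusted p 0.138, DESeq2 adjusted p 0.04).

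The factors that assemble on the class II promoter module (7 genes of the RFX, CREB and NF-Y groups) had a median log2 fold change of 0.08, with 6 of 7 above 0, and 0 passed by any of the 3 tools or an unadjusted p under 0.05. Nfya had the smallest p (0.16, edgeR adjusted p 0.337). Of 8 genes of interferon gamma signaling tested, 5 lay below 0, 0 passed by edgeR or limma voom, 1 had an unadjusted p under 0.05 and DESeq2 called 1. This was the receptor chain Ifngr1, with medians of 52.3 and 44.4 CPM (log2 fold change -0.23 ± 0.06, edgeR adjusted p 0.102).

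Among 5 MHC-like genes outside the region, 3 lay below 0, 0 passed by edgeR, and DESeq2 and limma voom each called 1 of the 2 with an unadjusted p under 0.05, Procr (-0.44, edgeR adjusted p 0.112). All 5 tested genes of costimulation and checkpoint lay below 0, 0 passed by edgeR, and both other tools called the 1 gene with an unadjusted p under 0.05, Icosl, a ligand of the T cell receptor ICOS (-0.30, edgeR adjusted p 0.112). Among T and NK cell genes 6 of 8 lay below 0, their sums ranged from 3.15 to 8.38 CPM, and 0 passed by any tool, with 1 at an unadjusted p under 0.05. Skeletal muscle genes ranged from 7.50 to 568.6 CPM in sum in Nf2 and from 11.1 to 162.6 CPM in DKO mice, and their part in these values was not tested. Of the 5, 0 passed by any tool and 4 were lower in DKO at an unadjusted p under 0.05, against 7.96% of all tested genes.

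Between the outermost H2 genes of chromosome 17 (33974659 to 37483552) lie 271 other genes of the table, of which 113 were tested. Their median log2 fold change was -0.03, and 68 of the 113 lay below 0, against 49.0% of all tested genes. By edgeR 0 passed, by DESeq2 1 and by limma voom 2, against 0.940%, 4.64% and 2.85% of all genes. At an unadjusted p under 0.05 there were 9. Of these, 7 were lower in DKO, a share of the 113 not above the 7.96% of all tested genes. The smallest p-values belonged to Gm11127 (log2 fold change -0.66, edgeR adjusted p 0.130), the complement gene C4b (-0.40, 0.146) and Ddah2 (-0.40, 0.172). C4b ranged from 677.5 to 902.1 CPM in Nf2 and from 408.3 to 742.8 CPM in DKO mice, which overlapped.

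Comparison by labelled sex addressed whether these genes depended on it. None of the 39 genes passed between mice labelled male and female (0 of 39 by edgeR, DESeq2 and limma voom, against 0.0164% of all tested genes by edgeR), with 3 at an unadjusted p under 0.05 by edgeR. These were H2-T10 (log2 difference, male minus female, 0.36, edgeR adjusted p 1), Ciita (0.57, 1) and Cd74 (0.48, 1). In 34 of 39 genes the value was higher in mice labelled male, against 49.5% of all tested genes, with a median of 0.21. Without mouse 702 it was higher in 28 of 39 with a median of 0.09 and 0 genes had an unadjusted p under 0.05.

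The interaction of genotype and sex likewise passed in 0 of 39 genes by edgeR, DESeq2 and limma voom, against 0.0109% of all tested genes by edgeR. The interaction was below 0 in 35 of 39 genes, against 51.8% of all tested genes, with a median of -0.48. The difference of DKO from Nf2 thus lay lower in mice labelled male, which include mouse 702. Without mouse 702 it was below 0 in 30 of 39 with a median of -0.33, and without mice 649, 702 and 1048 in 27 of 39 with a median of -0.12. Tap2 (-0.70, edgeR p 0.0265, adjusted p 0.920) and Nlrc5 (-1.38, edgeR p 0.0363, adjusted p 0.920) had an unadjusted p under 0.05, and neither did without mouse 702 (-0.53 and -0.73, edgeR p 0.0802 and 0.135). For labelled sex and for the interaction, the share of all tested genes at an unadjusted p under 0.05 was not computed. Those counts can therefore not be read as an excess.

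The 14 genes that were not tested had at most 21 counts in any mouse. H2-Pb and H2-M10.5 had 0 counts in all mice. For a single library taken alone, 0 counts leave room for an expected count of up to about 3. H2-Eb2, a second E beta gene, had at most 7 counts in a mouse, and the pseudogenes H2-Pa, H2-Q3, H2-M6-ps and H2-M10.5-ps1 at most 7. H2-M1, H2-M10.1, H2-M10.3, H2-M10.4 and H2-M10.6, known from sensory neurons of the vomeronasal organ, and H2-M2 had at most 5 counts in any mouse. H2-M9 had 21 counts in DKO mouse 886 and 35 in all 12 mice together.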

How the data were processed

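Poly(A) RNA libraries of DRG were made and sequenced by a commercial provider. Per the labels, the submitters' processing notes name Trimmomatic 0.36, STAR 2.5.2b, featureCounts, Subread 1.5.2 and GRCm38. The authors deposited raw counts, 1 whole number per gene and mouse, and whether counting used strand, and how it treated reads that match several genes, is not given in the sources used here. Coordinates, biotypes and exon lengths came from GENCODE M21, in which 48970 of 49315 gene IDs (99.3%) were found.

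Genotypes, labelled sex (genotype as covariate) and their interaction were tested by edgeR 4.0.16 quasi-likelihood F tests in R 4.3.3 on the whole table, after filterByExpr (18295 genes) and TMM scaling, with Benjamini-Hochberg adjustment over all tested genes and a threshold of 0.05. Standard errors were derived from the F statistic. The 39 genes that passed the filter include those that passed through the group in which they were high. CPM values use TMM-scaled totals. Correlations used 100000 resamples, or all orders within 6 mice, and adjustment over 6 pairs. Alternatives were DESeq2 1.42.0, limma 3.58.1 voom with quality weights, other scaling and filters, sex as a covariate, each sex alone and each mouse left out. The fits without mice 649 and 1048 and without mice 649, 702 and 1048 were chosen after seeing the data. The tests were tested on simulated data. Pandas 2.3.3, numpy 2.4.6 and matplotlib 3.10.9 under Python 3.11.15 served for the other steps and the plots.

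The genes, the lists and the tests were chosen with earlier results of these data known. The rule for naming took every gene past a threshold, 15 preset genes of the pathway, genes without overlap, the 5 largest further fold changes and the 5 largest coefficients of variation at a mean of 1 CPM or more, and, of other lists and of the region, genes past the threshold and up to 3 with the smallest p. Other genes of the lists are given as counts, apart from a few chosen after their values were seen. No 2 libraries agreed within sampling noise. The labels name each mouse, so that replicates are separate animals. The p-values for genotype, labelled sex and their interaction weigh a difference against the spread between animals.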

Additional observations from a re-analysis of the deposited data

Results flagged for a closer look

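A mouse far from the others of its genotype was sought in 42 groups of 6 mice, 1 per named gene and genotype, and 6 were found. Chance flags about 1 in 20 groups, but 5 of the genes were named for their large spread and the genes share mice, so that the number found cannot be read against chance.

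Mouse 702 (Nf2) gave 4 of the 6. It had 64.8 CPM of Tap1 (nearest Nf2 mouse 30.5), 115.4 CPM of Tapbp (91.2), 35.0 CPM of Nlrc5 (13.9) and 21.3 CPM of H2-T-ps (9.80). Mouse 1048 (Nf2) had 31.1 CPM of H2-T22 (6.85). Mouse 886 (DKO) had 25.7 CPM of H2-Ab1, below 48.0 CPM in the nearest DKO mouse. In H2-Eb1 and H2-K2 a pair of mice was high, and a pair is not found by a rule for single mice. What set these mice apart was not tested.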

How the results depend on the processing

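Depth limits the 14 genes with few counts, and the spread between 6 mice per genotype limits the rest. No paired analysis was possible because the replicate numbers are the numbers of single mice and no number occurs in both genotypes.

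The number of the 39 genes called between genotypes was 0 by edgeR, remained 0 under every alternative fit except DESeq2, and was 4 by DESeq2 (H2-K2, H2-K1, H2-Eb1 and H2-T23). The number called by labelled sex and for the interaction was 0 under every alternative. The median log2 fold change of -0.26 ranged from -0.32 to -0.10 without single mice and was -0.53 in mice labelled male and -0.03 in mice labelled female. The mice labelled male include mouse 702, and no fit of them was made without it.

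For 34 named genes and 782 alternative fits, 731 kept direction and side of the threshold, 20 passed where the edgeR fit of all mice did not, 2 no longer passed and 29 changed sign. C1qb did not pass in mice labelled male (-0.81, edgeR adjusted p 0.148) or female (-0.61, 0.351). The sign changes were in 9 genes. In mice labelled female the log2 fold change was 0.34 for B2m, 0.17 for Tap1, 0.15 for Tap2, 0.10 for H2-Aa, 0.05 for Ciita, 0.17 for H2-DMa and 0.16 for H2-T-ps. In mice labelled male it was -0.56 for Nlrc5. Without mice 649, 702 and 1048 it was 0.12 for B2m, 0.005 for Tap1, 0.02 for Tap2, 0.09 for Ciita, 0.20 for H2-DMa and 0.05 for H2-DMb1, and without mice 649 and 1048 it was -0.16 for Nlrc5 and 0.01 for H2-DMb1. Limma voom gave -0.01 for Nlrc5, 0.04 for Ciita and 0.03 for H2-DMa. Without mouse 702 it was 0.01 for B2m, 0.04 for Tap1, 0.24 for Ciita, 0.02 for H2-DMa and 0.03 for H2-T-ps, and without mouse 886 it was 0.004 for B2m and 0.04 for Ciita. Nlrc5 had -0.06 without mouse 1048, -0.005 without mouse 1049 and -0.15 without mouse 887. Without single mice the ranges were -0.25 to 0.01 for B2m, -0.37 to 0.04 for Tap1, -0.15 to 0.49 for Nlrc5, -0.21 to 0.24 for Ciita, -0.17 to 0.02 for H2-DMa and -0.51 to 0.03 for H2-T-ps. The cause was not tested.

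Of the correlations, leaving out the 2 mice farthest on the first gene gave an r of 0.54 for Ciita and Cd74, 0.44 for B2m and H2-K1, 0.65 for Tap1 and Psmb9, 0.12 for H2-K1 and H2-Aa, and -0.19 for Nlrc5 and H2-K1. Within Nf2 mice B2m and H2-K1 (0.90) and H2-K1 and H2-Aa (0.56), and within DKO mice Ciita and Cd74 (0.80), no longer passed the adjusted threshold, with 6 mice in place of 12. By Spearman rho no pair passed within a genotype. A pseudocount of 4 changed no call.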
